A study of Mus musculus with 2 samples.

Results

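The genes described here mark the walls of blood and lymph vessels. They were chosen by name, as 33 vessel genes matched to GENCODE mouse symbols, out of 43346 genes quantified in each library. Of these, 20 mark blood endothelium, the inner lining of blood vessels, 4 are markers of lymphatic endothelium, and 9 are listed as mural genes, for the pericytes and smooth muscle cells that wrap the lining. The study measured polyadenylated RNA in the thymus, the organ where T cells mature, of mice of the strain C57BL/6J at 8 weeks of age. It holds 1 group of 2 libraries, biological replicates 1 and 2, from tissue of littermates of both sexes, labelled as pooled male and female. No mutation or treatment is labelled, and both libraries name the same donor entry. The labels do not say which animals went into which library, so the spread between the libraries may be partly technical.

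The design holds no second condition. The questions that could be asked of these genes were how high each stood, how far the 2 libraries differed, and which transcripts made up each level. Levels are in transcripts-per-million (TPM), a measure that divides fragments by transcript length and therefore allows genes to be compared. Each mean is given ± SD with n = 2. In whole tissue, fewer cells of a type and less RNA per cell cannot be told apart.

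Vessels are a small part of thymus tissue but have defined tasks there. T cell progenitors enter from the blood through vessels near the boundary of cortex and medulla, and mature T cells leave by vessels in the same region. Endothelial cells are held together by junction proteins such as VE-cadherin and PECAM1, are kept quiescent by the angiopoietin receptor system of Tek and Tie1, and take their identity in part from SoxF transcription factors. Pericytes share a basement membrane with them and set vessel tone through ion channels and contractile proteins.

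Replicate 1 held 48566863 fragments assigned to genes and replicate 2 held 62127220. The 33 genes received 35804 fragments in replicate 1 and 55322 in replicate 2. Their summed level was 528 TPM in replicate 1 and 623 TPM in replicate 2, or 0.0528% and 0.0623% of all transcripts. Of the 33 genes, 29 reached 1 TPM on average over the libraries, beside 60.3% of 21474 protein-coding genes. All 20 blood endothelial genes, 2 of 4 lymphatic genes and 7 of 9 mural genes were among them. The median level was 10.6 TPM for the blood endothelial genes, 0.735 TPM for the lymphatic genes and 2.93 TPM for the mural genes. The median of all protein-coding genes was 3.29 TPM, and that of protein-coding genes of at least 1 TPM was 15.5 TPM. Detection counts and medians of lists chosen by name describe these libraries and were given no test.

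**Figure D1:**
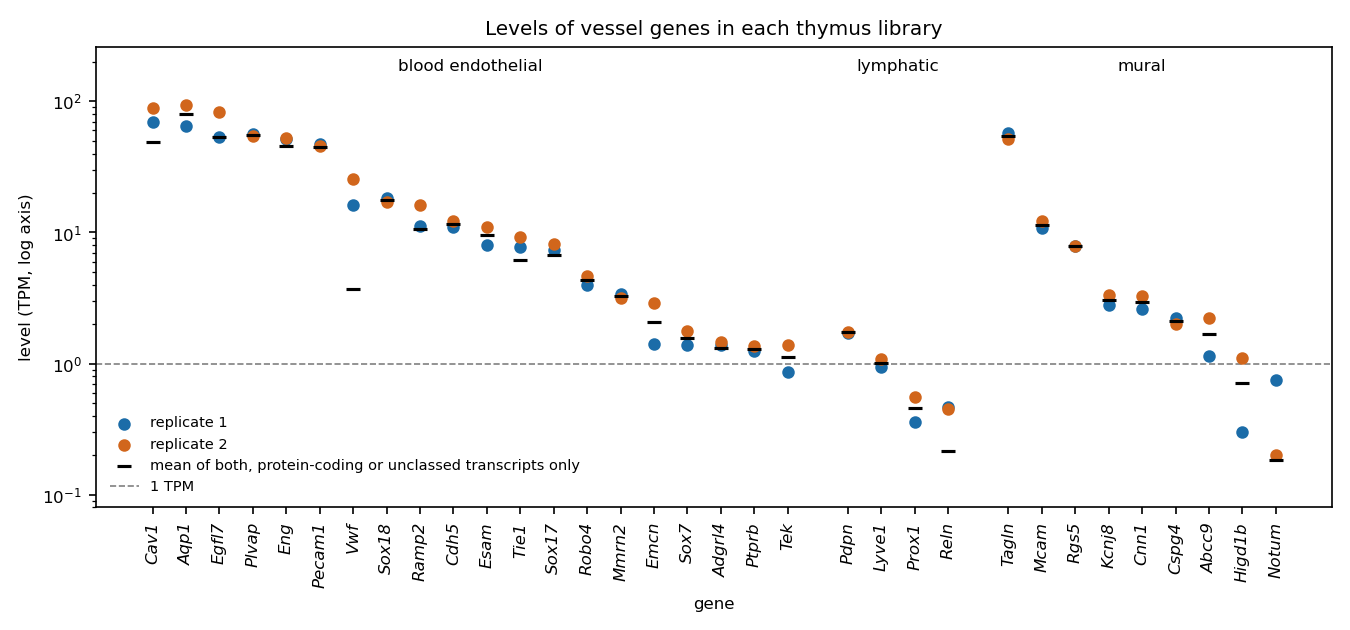
Level of each of the 33 genes in TPM on a log axis, ordered within blood endothelial, lymphatic and mural genes. Each gene has 1 point per library, and the black dash is the mean of both libraries when transcripts classed as other than protein-coding are left out. The blood endothelial genes span from 1.12 TPM for Tek to 79.8 TPM for Cav1, and the dash lies far below the points for Vwf.

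In the order of mean levels, 32 pairs of genes are neighbours, and the ranges of the 2 libraries overlapped in 25 of them. The 7 neighbouring pairs whose libraries did not overlap were Eng above Pecam1, Pecam1 above Vwf, Sox18 above Ramp2, Sox17 above Robo4, Robo4 above Mmrn2, Cspg4 above Pdpn and Adgrl4 above Ptprb. By these point values, genes separated mainly between blocks and not within them. The authors' own intervals overlapped within a library for Sox18 and Ramp2, Robo4 and Mmrn2, Cspg4 and Pdpn, and Adgrl4 and Ptprb. Without transcripts classed as other than protein-coding, Adgrl4 was at 1.16 TPM in replicate 1, below Ptprb at 1.24 TPM. The 5 highest by listed level were Cav1, Aqp1, Egfl7, Plvap and Tagln, and each overlapped with its neighbour. With transcripts classed as other than protein-coding left out, Cav1 averaged 49.4 TPM. That lay below Aqp1 at 79.5, Plvap at 55.7, Tagln at 54.6 and Egfl7 at 53.1 TPM.

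Of the membrane and transport genes of the blood endothelium, Cav1, Aqp1 and Plvap each stood above 50 TPM by their listed levels. Cav1, which encodes the coat protein of caveolae, was at 70.1 TPM in replicate 1 and 89.4 TPM in replicate 2 (79.8 ± 13.6, SD, n = 2). Aqp1, a water channel of endothelium and of red blood cells, was at 65.0 and 93.9 TPM (79.5 ± 20.4). Plvap, which forms the diaphragms of caveolae and fenestrae, was at 56.8 and 54.5 TPM (55.7 ± 1.64). Plvap thus varied least of the 3 between libraries. Erythroid markers, measured as a list of 7 genes, summed to 4498 TPM in replicate 1 and 5467 TPM in replicate 2, with 6 of 7 at or above 1 TPM. The part of red cells in the Aqp1 level was not tested. Nor was that of fat, fibroblasts or muscle, whose markers are given below, in the Cav1 level.

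Among the adhesion and signalling receptors, Eng, a co-receptor for TGF-beta family ligands, was at 52.1 and 52.2 TPM (52.1 ± 0.0849). Pecam1, an adhesion receptor of endothelial junctions that platelets and leukocytes also carry, was at 47.4 and 45.7 TPM (46.6 ± 1.21). Cdh5, which encodes VE-cadherin, was at 11.0 and 12.3 TPM (11.7 ± 0.905). Pecam1 stood above Cdh5 by 4.30-fold in replicate 1 and 3.71-fold in replicate 2. Esam, an immunoglobulin-like adhesion protein of endothelial junctions and platelets, was at 8.06 and 11.1 TPM. Robo4, an endothelial roundabout receptor that stabilises vessels, was at 3.97 and 4.69 TPM, and its wider-expressed paralog Robo1 was at 2.88 and 2.90 TPM. Emcn, a sialomucin of capillaries and veins, was low at 1.41 and 2.88 TPM. Adgrl4, an adhesion G protein-coupled receptor, was at 1.38 and 1.46 TPM.

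The angiopoietin receptor system was uneven in level. Tek, the receptor tyrosine kinase that binds angiopoietins, was at 0.860 and 1.38 TPM (1.12 ± 0.368). Its partner Tie1, which binds no angiopoietin alone but modulates Tek, was at 7.81 and 9.23 TPM (8.52 ± 1.00). Tie1 stood 9.08-fold above Tek in replicate 1 and 6.69-fold above it in replicate 2, by listed levels. Without transcripts classed as other than protein-coding, Tie1 was at 5.35 and 7.06 TPM and Tek at 0.850 and 1.38 TPM. Ptprb, the phosphatase VE-PTP that restrains Tek and acts at VE-cadherin junctions, was at 1.24 and 1.35 TPM. The agonist ligand Angpt1 and the context-dependent ligand Angpt2 were at 0.675 ± 0.163 and 0.745 ± 0.0495 TPM.

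The 3 SoxF transcription factors kept one order in both libraries. Sox18 was at 18.3 and 17.1 TPM (17.7 ± 0.849), Sox17 at 7.38 and 8.13 TPM (7.76 ± 0.530) and Sox7 at 1.38 and 1.77 TPM (1.57 ± 0.276). Sox18 stood 2.48-fold and 2.10-fold above Sox17, and 13.3-fold and 9.66-fold above Sox7, in replicates 1 and 2.

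Among secreted and matrix proteins, Egfl7, a matrix-bound protein of endothelium, was at 53.6 and 82.8 TPM (68.2 ± 20.7). Vwf, which encodes the platelet-binding von Willebrand factor, was at 16.3 and 25.5 TPM (20.9 ± 6.48), a level that rests on a short transcript described below. Mmrn2, an endothelial matrix glycoprotein that binds CD93, was at 3.40 and 3.14 TPM, while Cd93 itself was at 2.79 and 2.86 TPM. Its paralog Mmrn1, of platelets and lymphatic endothelium, was at 0.115 ± 0.00707 TPM.

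Ramp2 pairs with the receptor Calcrl to form the receptor for adrenomedullin, encoded by Adm. Ramp2 was at 11.3 and 16.3 TPM (13.8 ± 3.54), Calcrl at 6.26 and 6.85 TPM, and Adm at 10.1 and 11.2 TPM. The alternative partner Ramp1, which gives Calcrl affinity for calcitonin gene-related peptide, stood 19.3-fold above Ramp2 in replicate 1 and 13.9-fold above it in replicate 2. Ramp3 lay below Ramp2, by 1.74-fold and 2.30-fold. These ratios compare listed whole-tissue levels, of which Ramp2 kept 77.6% without transcripts classed as other than protein-coding. They do not say which cells hold each gene.

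The lymphatic genes were the lowest of the 3 groups. Prox1, the transcription factor that sets lymphatic identity, was at 0.360 and 0.560 TPM (0.460 ± 0.141), from 53 and 136 fragments. Lyve1, a hyaluronan receptor that some macrophages also carry, was at 0.940 and 1.08 TPM. Pdpn, a sialoglycoprotein of lymphatic endothelium but also of epithelium and fibroblasts, was at 1.72 and 1.75 TPM. Reln, a large secreted glycoprotein made by lymphatic vessels and neurons, was at 0.470 and 0.450 TPM, of which 46.7% came from transcripts classed as protein-coding. Of the other lymphatic genes measured, Flt4, the receptor for Vegfc, was at 1.06 ± 0.184 TPM. The macrophage markers, measured as a list of 7 genes, summed to 782 and 1020 TPM with all 7 at or above 1 TPM, and the 6 fibroblast markers summed to 95.3 and 123 TPM, also with all 6 at or above 1 TPM. Their part in the levels of Lyve1 and Pdpn was not tested.

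Among the mural genes, Tagln stood highest. Tagln, an actin-binding protein of smooth muscle, was at 57.1 and 52.0 TPM (54.6 ± 3.60), and Cnn1, smooth muscle calponin, was at 2.61 and 3.25 TPM (2.93 ± 0.453). Tagln stood 21.9-fold above Cnn1 in replicate 1 and 16.0-fold above it in replicate 2. Their paralogs Tagln2, Cnn2 and Cnn3, which many cell types express, were higher, at 147 ± 9.33, 194 ± 4.10 and 125 ± 2.38 TPM, and the paralog Tagln3 was at 0.975 ± 0.0778 TPM. Markers of pericytes lay between 2.12 and 11.6 TPM for the following 3 genes. Mcam, the adhesion receptor CD146 of pericytes, smooth muscle and endothelium, was at 10.9 and 12.2 TPM (11.6 ± 0.933). Rgs5, a regulator of G protein signalling and a marker of pericytes, was at 7.95 and 7.85 TPM (7.90 ± 0.0707). Cspg4, the proteoglycan NG2, was at 2.24 and 1.99 TPM (2.12 ± 0.177). The receptor Pdgfrb, which recruits pericytes, and its ligand Pdgfb were at 10.1 ± 0.148 and 8.79 ± 0.0636 TPM.

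Kcnj8 and Abcc9 encode the pore and the sulfonylurea receptor of the vascular ATP-sensitive potassium channel and lie next to each other on the minus strand of chromosome 6 (GRCm38, chr6:142564837-142571614 and chr6:142587862-142702315). Kcnj8 was at 2.78 and 3.36 TPM (3.07 ± 0.410). Abcc9 was at 1.15 and 2.21 TPM (1.68 ± 0.750). Kcnj8 was thus 2.42-fold above its partner in replicate 1 and 1.52-fold above it in replicate 2. The paralogous pair Kcnj11 and Abcc8 forms the channel of pancreatic beta cells, and Kcnj11 is also part of that of heart and skeletal muscle. Kcnj11 was at 1.49 and 6.75 TPM and Abcc8 at 1.00 and 2.06 TPM.

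The last 2 mural genes were close to the detection limit. Higd1b, a small mitochondrial protein found in pericytes, was at 0.300 and 1.11 TPM from 3 and 28 fragments. Notum, a secreted enzyme that inactivates Wnt ligands, is not a textbook mural gene and was at 0.750 and 0.200 TPM from 25 and 15 fragments. At such counts the ratio of the libraries is loosely bounded, with a log2 count ratio of 2.79 for Higd1b (95% exact binomial interval, for counting error only, 1.10 to 5.15) and -1.17 for Notum (-2.20 to -0.19).

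Each level rests on the transcripts to which fragments were assigned, and for some genes these carry the finding. Of the 29 genes with at least 1 TPM, 12 had 1 annotated transcript and 17 had 2 or more. The transcript with the largest TPM was the same in both libraries for 16 of the 17, and its share averaged over 90% of the gene for 4 and under 50% for 5. For 13 of the 17 the leader by TPM was in both libraries also the leader by fragment count. Sequences are printed below for the places where transcripts of a gene part and the level or the encoded protein depends on the choice. They come from the GRCm38 genome, are written 5′ to 3′ on the gene's own strand, and show the alternative stretch in capitals with flanking bases of the mature transcript in lower case.

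Vwf was the 1 gene of the 17 led by a transcript that is not protein-coding. Vwf-209, a processed transcript of 456 bases from the 3′ end of the gene, held 56.7% and 70.4% of the gene's TPM in replicates 1 and 2 but only 5.30% and 9.55% of its fragments. Its first bases, shown because they are the part of it that the protein-coding transcript Vwf-203 lacks, lie at chr6:125685737-125685809 on the plus strand.

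Vwf start of the short transcript: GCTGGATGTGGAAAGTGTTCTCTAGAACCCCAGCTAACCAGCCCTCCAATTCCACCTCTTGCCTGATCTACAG

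The remaining bases of Vwf-209 are also in the last exons of the full-length messenger. When transcripts classed as non-coding, as retained introns or as targets of nonsense-mediated decay were left out, Vwf was at 3.69 TPM in both libraries, which is 17.6% of its listed level. One transcript of 8817 bases, listed as ENSMUST00000001995 and absent from the annotation used for classes, was kept in that sum, and it held 48.1% and 68.5% of the gene's fragments. Besides Vwf-209, that sum leaves out Vwf-210, a target of nonsense-mediated decay that held 19.2% and 14.9% of the gene's TPM.

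Among the other genes of at least 1 TPM, the same treatment left 4 under 80% of their listed level. Cav1 kept 62.0% of its level, at 44.3 and 54.5 TPM, since the processed transcript Cav1-208 of 345 bases held 34.9% and 29.3% of its TPM beside 8.81% and 7.49% of its fragments. Tie1 kept 72.8%, Ramp2 77.6% and Egfl7 77.8%. For Ramp2 the retained-intron transcript Ramp2-205 held 7.88% of TPM in replicate 1 and 26.0% in replicate 2. The protein-coding Ramp2-204 was at 9.95 and 10.02 TPM.

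**Figure D2:**
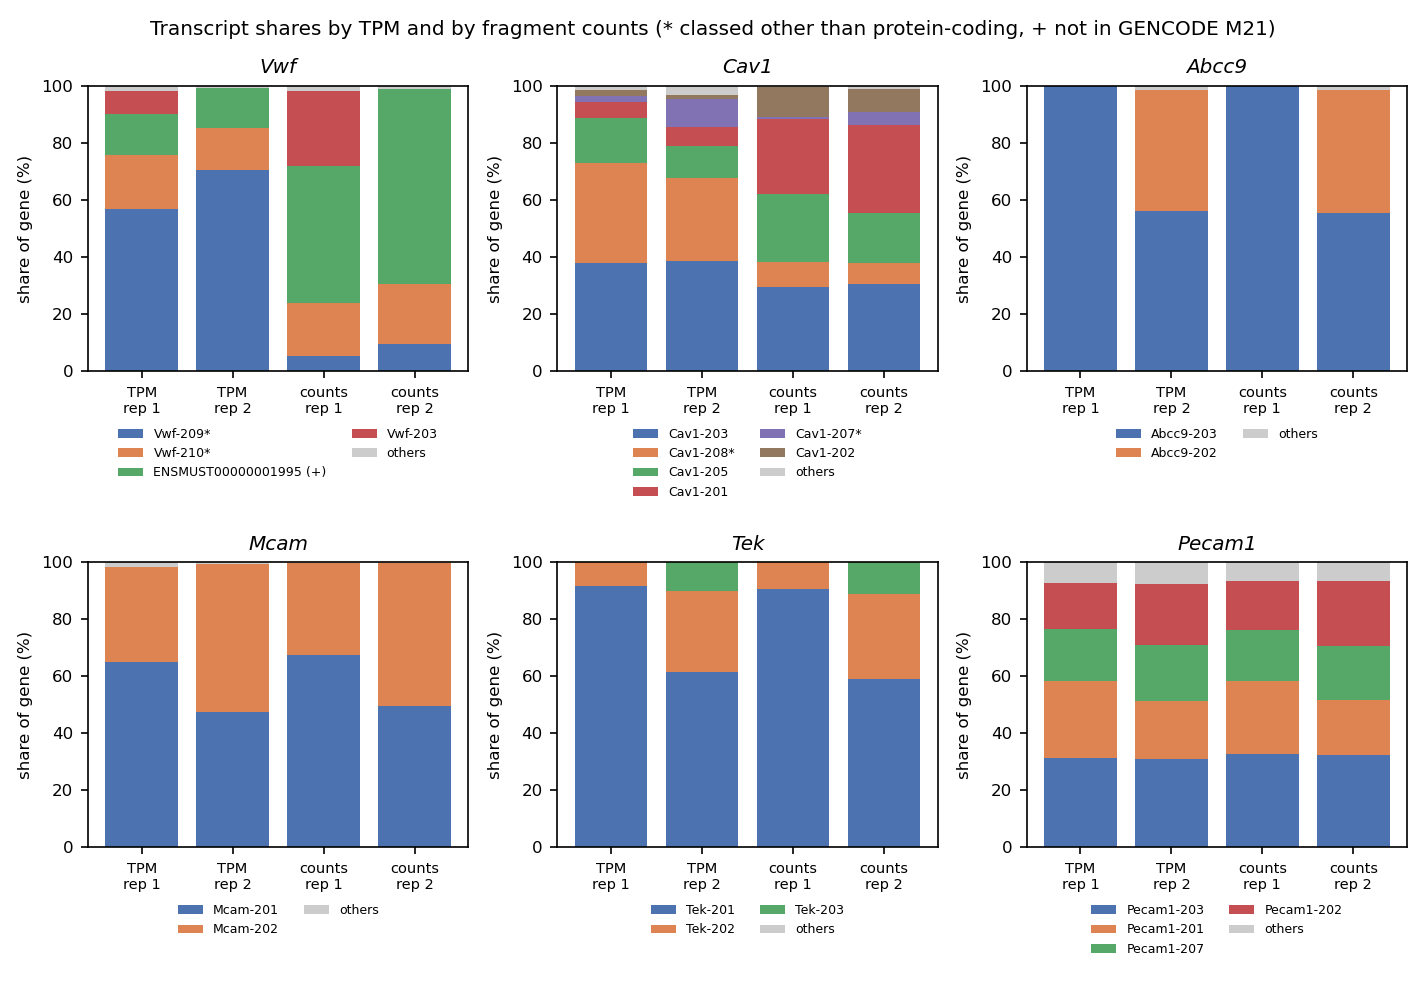
Share of Vwf, Cav1, Abcc9, Mcam, Tek and Pecam1 held by their transcripts, as stacked bars from 0 to 100% by TPM and by fragment counts in replicates 1 and 2. An asterisk marks a transcript classed as other than protein-coding and a plus sign 1 Vwf transcript, ENSMUST00000001995, that has no class in GENCODE M21. Vwf-209 takes 56.7% and 70.4% of Vwf by TPM but 5.30% and 9.55% by counts, and the second Abcc9 transcript appears in replicate 2 only.

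Among the 17 genes, the share of the leading transcript differed most between the libraries for Abcc9. The gene has alternative last coding exons that give the sulfonylurea receptor forms SUR2A, known from heart and skeletal muscle, and SUR2B, known from smooth muscle. The files do not name which transcript is which form. Both exons are shown because the libraries differed in which of them was assigned. The upstream exon, used mainly by Abcc9-202, lies at chr6:142594008-142594142 and the downstream exon, used by Abcc9-203, at chr6:142590369-142590503, both on the minus strand, each with 135 coding bases.

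Abcc9 upstream last coding exon: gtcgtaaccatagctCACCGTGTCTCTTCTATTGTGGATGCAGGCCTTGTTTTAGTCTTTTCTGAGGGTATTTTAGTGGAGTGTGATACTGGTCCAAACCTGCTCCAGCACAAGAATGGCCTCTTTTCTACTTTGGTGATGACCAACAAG

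Abcc9 downstream last coding exon: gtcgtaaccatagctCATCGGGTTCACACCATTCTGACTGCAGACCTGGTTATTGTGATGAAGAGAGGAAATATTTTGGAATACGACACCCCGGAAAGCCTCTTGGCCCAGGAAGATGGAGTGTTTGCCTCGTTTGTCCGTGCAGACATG

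Both are preceded by the same 15 bases, and the exons share 72 identical bases over 136 alignment columns, or 52.9%. In replicate 1 the downstream exon took 100% of the TPM of the coding transcripts that reach it and the upstream exon 0%. In replicate 2 the downstream exon took 56.1% and the upstream exon 43.9%. The authors' own interval for Abcc9-202 reached from 8.58e-07 to 0.113 TPM in replicate 1 and from 3.15e-06 to 0.809 TPM in replicate 2, where its point value was 0.940 TPM. For Abcc9-203 it reached from 0.928 to 1.51 TPM in replicate 2. The upstream exon's share in replicate 2 is thus loosely bounded by those intervals, whose level is not given in the sources used here.

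Mcam was the 1 gene of the 17 whose leading transcript by TPM differed between the libraries. Mcam-201 held 65.1% and 47.3% of its TPM and Mcam-202 held 33.4% and 52.2%. The transcripts part at an exon of 118 bases near the end of the coding sequence, at chr9:44141275-44141392 on the plus strand. Its length is not a multiple of 3, so inclusion shifts the reading frame that follows. CD146 is known in forms with a long and a short cytoplasmic tail, and the exon is shown as the stretch that separates the transcripts.

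Mcam exon: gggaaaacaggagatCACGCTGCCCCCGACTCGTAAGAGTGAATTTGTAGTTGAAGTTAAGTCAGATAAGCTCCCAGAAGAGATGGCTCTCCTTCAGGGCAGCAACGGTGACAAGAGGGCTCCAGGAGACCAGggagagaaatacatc

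This exon was in 66.1% of the spanning coding transcripts of replicate 1 and 47.5% of those of replicate 2 (56.8 ± 13.1%).

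The other alternative exons differed in how well the libraries matched. In Tek, an exon of 153 bases at chr4:94799127-94799279 on the plus strand, which keeps the reading frame, was in 91.8% and 71.7% of spanning coding transcripts. The Tek value rests on 120 and 277 fragments for the whole gene.

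Tek exon: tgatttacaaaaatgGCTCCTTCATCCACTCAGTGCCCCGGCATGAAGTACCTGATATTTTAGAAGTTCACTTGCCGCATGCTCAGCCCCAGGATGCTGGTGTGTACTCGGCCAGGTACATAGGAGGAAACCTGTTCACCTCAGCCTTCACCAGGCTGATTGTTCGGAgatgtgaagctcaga

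Pecam1 exon 14, of 57 bases at chr11:106671742-106671798 on the minus strand, belongs to the cytoplasmic tail that carries the receptor's inhibitory motifs. It was in 67.6% and 67.8% of spanning coding transcripts, so the libraries differed by less than 1 percentage point.

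Pecam1 exon 14: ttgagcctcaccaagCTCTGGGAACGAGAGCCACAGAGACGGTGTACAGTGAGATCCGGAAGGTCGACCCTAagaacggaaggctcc

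Emcn has an in-frame exon of 39 bases at chr3:137403984-137404022 on the plus strand. It was in 40.2% and 40.6% of spanning coding transcripts by TPM. The value rests on 89 and 231 fragments for the whole gene. Emcn-202, which holds the exon, took 47.8% and 57.9% of those fragments.

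Emcn exon: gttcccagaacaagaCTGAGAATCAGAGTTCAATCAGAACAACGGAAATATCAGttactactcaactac

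Eng has a coding transcript, Eng-202, that reads 86 coding bases into an intron, at chr2:32681298-32681383 on the plus strand, before it stops. A short endoglin with a different tail is known to arise by intron retention. The retained form held 14.3% and 10.9% of the spanning coding transcripts. Eng overlaps Fpgs on the opposite strand at its 3′ end, and Fpgs was at 55.1 and 48.7 TPM.

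Eng retained intron: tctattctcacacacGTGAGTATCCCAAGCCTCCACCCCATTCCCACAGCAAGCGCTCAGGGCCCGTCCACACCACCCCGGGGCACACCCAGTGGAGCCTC

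These shares carry the error of assigning fragments of 76-base reads to transcripts that share most of their sequence. The shares of Pecam1 and Emcn by TPM differed by less than 1 percentage point between the libraries, for Emcn from 89 and 231 fragments. Those of Abcc9, Mcam and Tek differed by more.

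The libraries were compared for each gene as the log2 ratio of replicate 2 to replicate 1 after adding 0.1 TPM, for genes averaging 1 TPM or more. A difference of at least 1.5-fold was counted. It describes these 2 libraries, and no test between conditions exists. Of the 29 vessel genes, 5 were at least 1.5-fold higher in replicate 2, beside 6.35% of 14360 genes. None was that much higher in replicate 1, beside 5.65%. Of the 29, 22 had a ratio above 0, beside 44.1% of all genes. The median log2 ratio was 0.18 for the vessel genes and -0.04 for all genes.

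The 5 genes were Emcn, Abcc9, Vwf, Egfl7 and Tek, with log2 ratios of 0.98, 0.89, 0.64, 0.63 and 0.62. Fragment counts scaled by the trimmed mean of M-values (TMM), which take no account of transcript lengths, gave 3 genes, Abcc9, Emcn and Tek, beside 6.53% of all genes, and none higher in replicate 1, beside 4.15%. By counts the log2 ratio was 0.99 for Abcc9 (95% exact binomial interval 0.79 to 1.19), 0.94 for Emcn (0.59 to 1.31) and 0.78 for Tek (0.46 to 1.10). Emcn lies at chr3:137341067-137432185, Tek at chr4:94739289-94874976, Egfl7 at chr2:26580014-26593120 and Vwf at chr6:125546774-125686679, all on the plus strand of GRCm38. For Egfl7 the count ratio was 0.56 (0.47 to 0.66), just short of 1.5-fold. For Vwf it was 0.14 (0.04 to 0.23), and without the transcripts classed as other than coding the TPM ratio was 0.00. The effective length of Vwf, the mean length over its transcripts weighted by their shares, was 2572 bases in replicate 1 and 1764 bases in replicate 2, which is where its TPM and count ratios part.

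**Figure D3:**
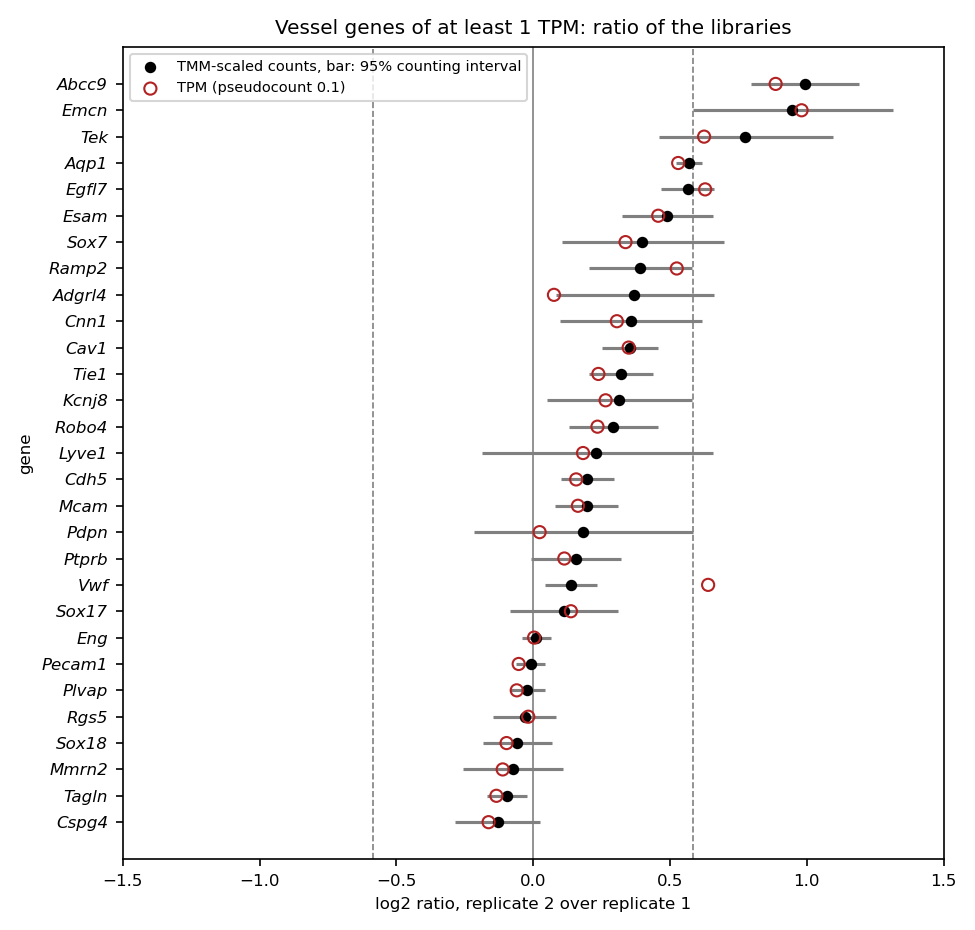
Log2 ratio of replicate 2 to replicate 1 for the 29 vessel genes with at least 1 TPM, from TPM and from TMM-scaled counts, with 95% exact binomial intervals of the count ratio for counting error, and dashed lines at 1.5-fold. Abcc9, Emcn and Tek lie past the line by both measures, and Vwf and Egfl7 by TPM alone.

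Over the 29 genes, the counting interval lay above 0 for 17 and included 0 for 11. It lay below 0 for Tagln alone, at -0.10 (-0.17 to -0.02). The intervals cover counting error only. The share of all genes with such intervals is not given here, so these counts do not set the vessel genes apart from other genes. Aqp1 had the narrowest interval of those well above 0, with a log2 count ratio of 0.57 (0.52 to 0.62) from 5498 and 11006 fragments. Eng, Plvap, Pecam1 and Rgs5 stood at log2 count ratios of 0.01, -0.02, -0.01 and -0.03. The ratios thus differed among the vessel genes. Near 0 the sign depended on the processing. Of these genes, Pecam1, Plvap and Rgs5 turned above 0 when TPM was rescaled over protein-coding genes, Adgrl4 and Pdpn turned below 0 by posterior mean TPM, and Eng turned below 0 without the non-coding transcripts.

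Markers of other tissues differed between the libraries in both directions and by unlike amounts. The 6 heart muscle genes, a list added after the values were seen, summed to 153 TPM in replicate 1 and 1838 TPM in replicate 2. All 6 were at least 1.5-fold higher in replicate 2 and none was at 0 in either library. Nppa, the atrial natriuretic peptide, was at 1.36 and 154 TPM, and Myh6, the atrial and adult mouse ventricular myosin, at 8.46 and 86.9 TPM. The 10 skeletal muscle genes, added in the same way, summed to 27.9 and 194 TPM, with 6 of 10 at or above 1 TPM and Myh2 at 0 and 0.02 TPM. Of those 6, 3 were at least 1.5-fold higher in replicate 2. Most of the difference in the sum lay in Ckm, a creatine kinase of heart and skeletal muscle, at 10.7 and 163 TPM, whereas Mylpf was at 7.31 and 8.13 TPM. Their part in the ratios of Abcc9, Emcn, Tek, Vwf, Egfl7 and Aqp1 and in the Abcc9 exon shares was not tested. Platelet markers, 6 genes with 5 at or above 1 TPM, summed to 14.7 and 25.5 TPM, with Pf4 at 7.70 and 17.3 TPM, and their part in the Vwf, Pecam1 and Esam levels was not tested either. The 7 fat genes summed to 1687 and 1343 TPM. Of these, 4 were lower in replicate 2, with Ucp1 at 346 and 124 TPM and Cfd at 820 and 680 TPM, and 3 were higher, and Ucp1 alone differed by 1.5-fold. The 7 thymocyte genes were at 3286 and 3272 TPM and the 7 thymic epithelial genes at 1024 and 1354 TPM.

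**Figure D4:**
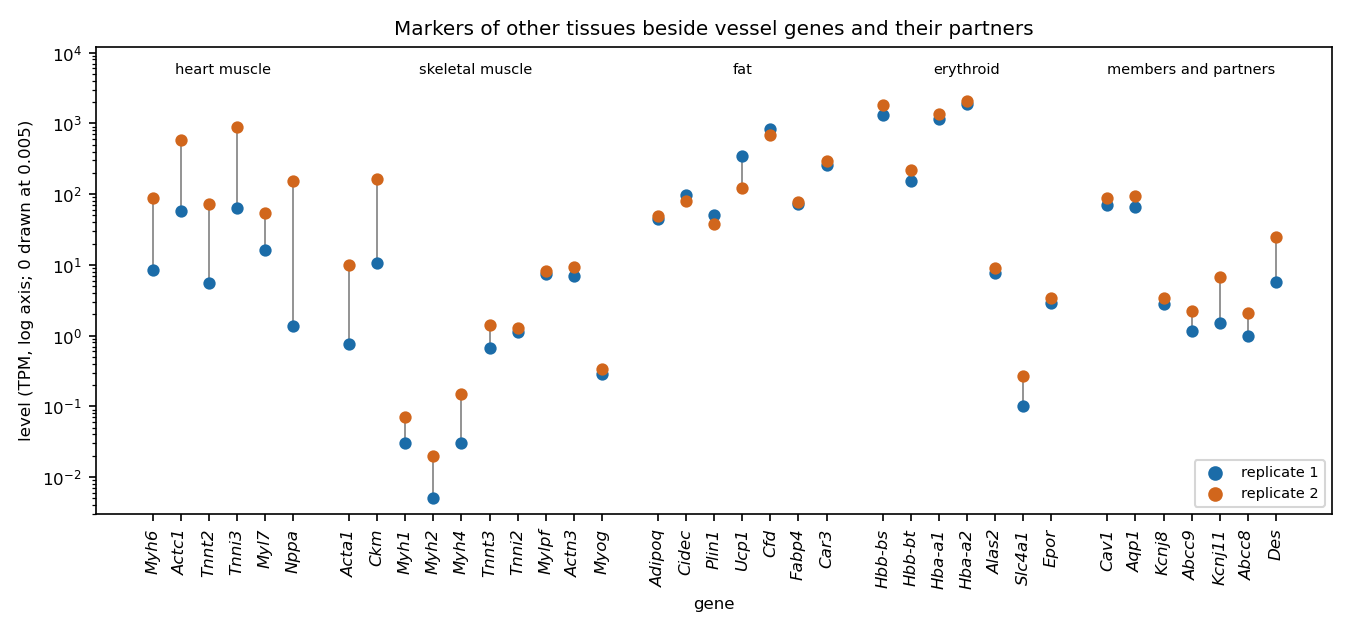
Level in TPM on a log axis of each heart muscle, skeletal muscle, fat and erythroid marker, and of 7 vessel genes, partners and mural genes, with 1 point per library joined by a line and values of 0 drawn at 0.005. All 6 heart muscle markers stand higher in replicate 2, such as Nppa at 1.36 and 154 TPM, while Abcc9 stands at 1.15 and 2.21 TPM.

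Genes of the same pathways were read from 5 further lists. Of 12 ligands and receptors of the VEGF and angiopoietin systems, 8 were at or above 1 TPM, with a median of 1.35 TPM. The ligands Vegfa and Vegfb, at 43.1 ± 8.62 and 31.4 ± 1.57 TPM, and the co-receptor Nrp1, at 10.5 ± 0.544 TPM, were highest, and Vegfd and Angpt1, at 0.340 ± 0.0566 and 0.675 ± 0.163 TPM, lowest. Of 12 endothelial transcription factors, 10 were at or above 1 TPM, with a median of 3.92 TPM. Ets1, Klf2 and Fli1, at 273 ± 84.5, 60.9 ± 16.8 and 25.4 ± 4.21 TPM, were highest, and all 3 are also known in T cells. Foxc2 and Tal1, at 0.670 ± 0.0707 and 0.745 ± 0.0636 TPM, were lowest.

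Of 15 endothelial surface and junction genes, 13 were at or above 1 TPM, with a median of 2.83 TPM. Icam2 and Icam1, adhesion receptors that leukocytes also carry, were at 165 ± 14.1 and 66.8 ± 4.45 TPM, and Gpihbp1, which holds lipoprotein lipase on capillaries, at 18.0 ± 7.28 TPM. Mmrn1 and Sele, the inducible selectin, were lowest, the latter at 0.125 ± 0.0212 TPM. Cldn5, the tight junction claudin of endothelium, was at 10.3 and 12.0 TPM, and Plvap stood above it by 5.54-fold and 4.53-fold. Of 15 partners and paralogs, 14 were at or above 1 TPM, with a median of 6.80 TPM, and the highest were Ramp1, Cnn2 and Tagln2. The lowest were Tagln3 and Abcc8. Cav2, the partner of Cav1 in caveolae, was at 8.21 ± 0.962 TPM, with Cav1 above it by 9.31-fold and 10.1-fold by listed levels. Without transcripts classed as other than protein-coding, Cav1 was at 44.3 and 54.5 TPM and Cav2 at 7.53 and 8.89 TPM.

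All 12 other mural and smooth muscle genes were at or above 1 TPM, with a median of 8.94 TPM. Acta2, smooth muscle actin, at 109 ± 1.90 TPM, Notch3, a receptor of mural cells and of thymocytes, at 52.4 ± 5.66 TPM, and Myl9, at 26.4 ± 1.18 TPM, were highest. Itga8 and Lmod1, at 1.92 ± 1.40 and 2.37 ± 0.629 TPM, were lowest. Over the 5 lists, the genes at least 1.5-fold higher in replicate 2 were 1 of 8 in the VEGF list, 1 of 10 transcription factors, 3 of 13 surface genes, 2 of 14 partners and 1 of 12 mural genes, beside the 6.35% of all genes given above. They were, named after their values were seen, Pgf, Bcl6b, Gpihbp1, Selp, Jam2, Kcnj11, Abcc8 and Des. Des, desmin of all muscle types, was at 5.71 and 24.9 TPM, higher in replicate 2 as the heart markers given above were, whose part in it was not tested. In replicate 1, Ets1 and Itga8 were that much higher, 1 of 10 transcription factors and 1 of 12 mural genes, beside 5.65% of all genes.

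The groups were detected to different degrees, and detection in whole tissue does not show which cells hold a gene. All 20 blood endothelial genes averaged 1 TPM or more, among them Cdh5, Tie1 and the 3 SoxF genes. Tek was at 0.860 TPM in replicate 1. Vwf was at 3.69 TPM in both libraries without transcripts classed as other than coding. Pecam1 is also carried by platelets and leukocytes. Of the mural genes, 7 of 9 reached 1 TPM, among them the pericyte markers Rgs5 and Cspg4, while Tagln and Cnn1 also mark smooth muscle. Higd1b and Notum averaged 0.705 and 0.475 TPM. For the lymphatic genes, Prox1 and Reln lay under 1 TPM in both libraries, and Lyve1 in replicate 1, at 0.940 TPM. Of the 33 genes, 12 overlap an annotated gene on the opposite strand. The share of all genes that do so is not given here. The libraries are labelled as stranded, but whether the counting used strand is not given in the sources used here. Beside Eng, the 12 include Egfl7 with Agpat2 at 115 and 70.4 TPM, Plvap with Gtpbp3 at 49.3 and 44.8 TPM, and Tagln with Pcsk7 at 37.4 and 34.9 TPM. For the others of the 12, each gene on the opposite strand lay under 1 TPM in both libraries or was not quantified. Ramp2 overlaps Vps25, at 75.1 and 73.6 TPM, on the same strand, so fragments in the shared stretch have more than 1 possible source.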

How the data were processed

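Polyadenylated RNA longer than 200 bases, of 8-week thymus, was sequenced as 76-base read pairs in 2 libraries, per the labels. The deposited tables give, per gene and transcript, expected counts, effective lengths and TPM made by the authors against mm10; the quantification tool is not given in the sources used here. The intervals of TPM are also the authors'. GENCODE M21 (GRCm38) supplied names, transcript classes and positions, matched on unversioned identifiers for 42462 of 43346 genes and 140 of 141 transcripts of the vessel genes. Sequences were read from that genome.

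Mean and SD were taken over the libraries (Python 3.11.15, pandas 2.3.3). Ratios used log2(TPM + 0.1), which understates changes of low genes, for genes averaging 1 TPM or more. Counts were scaled by TMM (edgeR 4.0.16) or DESeq2 1.42.0 size factors only, and intervals are exact binomial at 95% (scipy 1.17.1). The ratio step was tested on simulated data. The genes and lists were chosen with earlier results of these data known. All 33 vessel genes are named; of each further list, the 3 highest, the 2 lowest and the partners and close paralogs of vessel genes. One marker of the erythroid list is not reported here. Deposited contigs and junctions were not used here. Depth was 48566863 and 62127220 fragments on genes, where 3 fragments are 0.0618 and 0.0483 CPM.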

Additional observations from a re-analysis of the deposited data

How the results depend on the processing

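The count of 29 vessel genes at or above 1 TPM lay between 27 and 30 with either library left out. At a threshold of 2 TPM it was 22, and at 0.5 TPM it was 30. The median of the blood endothelial genes, 10.6 TPM, was 9.55 to 11.7 TPM with either library left out, 14.0 when TPM was rescaled over protein-coding genes, 15.2 CPM without length scaling, and 8.10 TPM without transcripts classed as non-coding or decay targets, an alternative chosen after seeing the data. The lymphatic median, 0.735 TPM, was 0.705 to 0.820 with either library left out, 0.900 from the authors' posterior means, 0.966 rescaled and 1.92 CPM. The mural median, 2.93 TPM, was 2.61 to 3.25, 3.85 and 9.21 under leaving out a library, rescaling and CPM. The 5 genes at least 1.5-fold higher in replicate 2 became 3 with a pseudocount of 1 TPM, namely Vwf, Emcn and Egfl7. They became 3 by TMM-scaled counts, 3 by DESeq2-scaled counts and 3 without non-coding transcripts, each time Tek, Emcn and Abcc9. By posterior means there were 4, without Tek. There were 6 with no filter on low values and 7 with rescaled TPM, which added Aqp1 and Ramp2. At a threshold of 2-fold there were 0. Emcn was in each set named here. The share of all genes called is given above for the main setting and for TMM-scaled counts only. The 0 genes higher in replicate 1 became 1, Notum, with no filter on low values. The cause of these moves was not tested. Leading transcripts were the same in both libraries for 16 genes, and for 15 by posterior means. No paired analysis was possible because there is 1 group of 2 libraries. Of the 29 genes, 11 had ratios within counting error, and Higd1b, Notum and Prox1 rest on few fragments.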

Other observations

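Mir126a, the endothelial microRNA encoded within Egfl7, was listed at 0 counts in both libraries while its host was at 53.6 and 82.8 TPM. The libraries hold RNA over 200 bases, so mature microRNAs fall outside what was sequenced.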
